A study of Mus musculus with 3 samples.

Results

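The comparison of 4 h with 2 h of doxorubicin describes the later step of a short time course in B16, an established line of mouse melanoma cells. It rests on 2 of the 3 arrays of the series, chosen by their titles, 1 array at each time point. Cells on all 3 arrays are labelled with 1 µg/ml doxorubicin and with 0, 2 or 4 h of it. Total RNA was hybridised to Affymetrix Mouse430_2 arrays, on which a probe set is a group of short probes for 1 transcript and its signal is a brightness on a linear scale. With 1 array at each time point no test was possible, so genes were counted by the size of the difference and no p-value is given. No untreated culture at 2 h or 4 h is among the samples used here, so the drug and time in culture cannot be told apart. In bulk RNA, fewer cells and less RNA per cell also cannot be told apart.

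Doxorubicin is an anthracycline that slides between the base pairs of DNA, evicts histones and traps topoisomerase II on cut DNA. These effects interfere with transcription. When synthesis of a transcript slows, its level declines at a rate set by the stability of the RNA, so short-lived transcripts, such as those of transcription factors and feedback inhibitors, are known to decline before long-lived ones, such as those of ribosomal proteins. This is general background and was not measured here.

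Signals were scaled to the same trimmed mean on each array and those under 100 were set to 100, the floor. A gene was read from its brightest probe set, and 9723 genes had a mean log2 signal at or above that of a signal of 200. The 2 intervals, 0 to 2 h and 2 to 4 h, share the 2 h array, so an error in a 2 h signal enters both ratios with opposite signs. Where a gene had several probe sets, the SD of their log2 ratios is given as the error. Over all such genes this SD was 0.38, from 0.54 in the dimmest of 4 bins of signal to 0.24 in the brightest, and it holds no variation from cultures or arrays. The median signal over all probe sets was 154, 136 and 126 at 0, 2 and 4 h. In the file headers, the hybridize time of day of the 4 h array is 94 min after that of the 0 h array, against 1 min for the 2 h array. The fluidics module was 3, 4 and 1 for the 0, 2 and 4 h arrays. Array handling and treatment time therefore cannot be told apart. Of 16 pigment cell markers 15, 13 and 14 reached a signal of 200 at 0, 2 and 4 h. Their summed signals were 219101, 235716 and 234902, carried by a few genes such as Tyrp1 (42568, 44083 and 47128), whereas their median was 7489, 2420 and 1417, and Kit, a receptor of melanocytes, was at 149, 24.5 and 84.5. Macrophage markers were read because a label field names bone marrow-derived macrophages. Of 20 such genes 7, 6 and 6 reached a signal of 200, and 4 were under 100 on every array. Their sums were 5268, 6052 and 6711, or 3384, 3008 and 3013 without Cd68, a lysosomal glycoprotein that other cells also make. Fibroblast markers reached 200 in 4 of 9 genes on each array, with sums of 4132, 4352 and 4362. The 18S ribosomal RNA probe set of the 3′ region had 541, 894 and 1247, and those of the 5′ and middle regions moved the same way. The ratio of 3′ to 5′ signal was 1.07, 1.10 and 1.18 for actin and 3.53, 4.64 and 2.81 for the transferrin receptor. The part of these markers and control probe sets in the results below was not tested.

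At 4 h far more genes were lower than higher against 2 h. Of 9723 genes, 526 (5.41%) were lower by 2-fold or more and 82 (0.843%) higher by as much, and the median log2 ratio was -0.06. Differences of at least 4-fold were found in 38 lower and 2 higher genes. Among the genes furthest down were Med18 and Med22 of the Mediator complex, the nuclear pore gene Nup62 and the replication licensing factor Cdt1. In this scaling 86.5% of the genes past 2-fold were lower. That share was 66.3% (360 lower, 183 higher) when arrays were scaled to equal medians. Under quantile normalization it was 72.8% (377 lower, 141 higher), and setting hybridization spike-ins equal gave 92.5% (708 lower, 57 higher). These scalings moved the median log2 ratio of all genes by 0.15, 0.05 and -0.11. Values of gene lists are therefore read against that median.

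**Figure D1:**
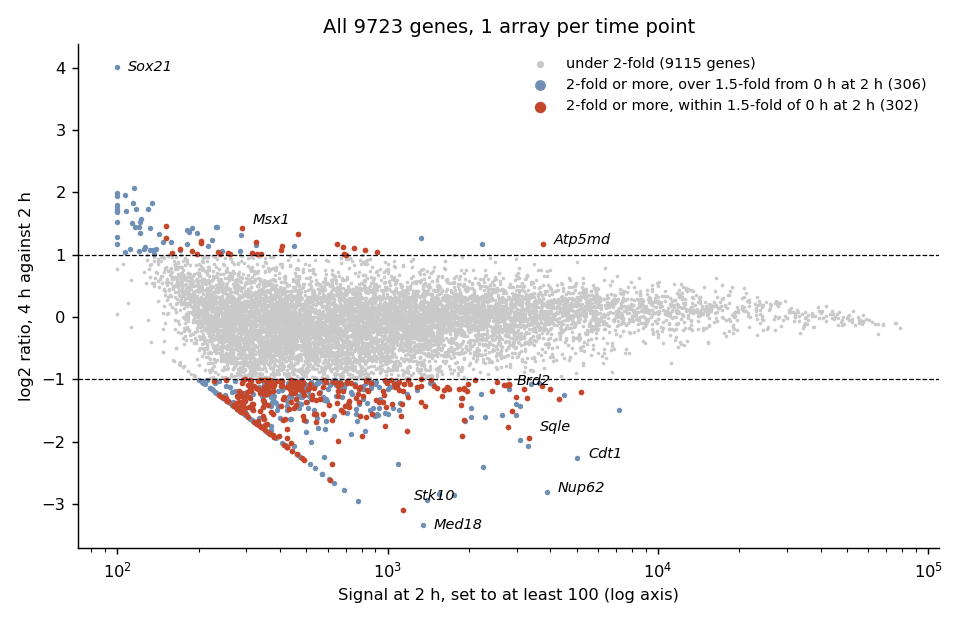
Log2 ratio of 4 h against 2 h (vertical axis) against the signal at 2 h (horizontal log axis) for 9723 genes, 1 point a gene; dashed lines mark 2-fold, and red points also lie within 1.5-fold of 0 h at 2 h. Lower genes reach bright signals such as those of Cdt1 and Nup62, and 49 of the 82 higher genes have a 2 h signal under 200, which is also the denominator of their ratio; the sloping lower edge is formed by genes at the floor of 100 at 4 h.

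Counts in the 2 directions are given by the 2 h signal as a description, because that signal is also the denominator of the ratio. Among 840 genes with a signal of 5000 or more at 2 h, 3 were at least 2-fold lower and 0 higher. From 1000 to 2000, 57 of 1758 genes were lower and 1 was higher. From 200 to 500, 286 of 3182 were lower and 23 higher. Under 200, where a 2-fold lower value would lie under the floor, 0 of 409 were lower and 49 higher. Genes in this last bin passed the filter only through a higher signal at 0 h or 4 h, so their higher ratios (median 0.44) are partly built in and support nothing. The lower genes lay in every bin from 200 upwards. Their median signal at 4 h was 185, under the filter of 200, so many passed only through a higher signal at 0 h or 2 h. Those lower ratios are partly built in as well, and the filter shapes the counts in both directions.

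Med18, a subunit of the head of Mediator, the complex that links transcription factors to RNA polymerase II, had the lowest ratio above the floor. Its signals at 0, 2 and 4 h were 823, 1353 and 134, a log2 ratio of -3.34 between the last 2 arrays. It stood above 0 h at 2 h and far below it at 4 h. Stk10, a kinase of lymphocytes and other cells that phosphorylates ERM proteins, had signals of 1293, 1138 and 132 (-3.10). Akirin2, a nuclear protein that works with chromatin remodellers and in import of the proteasome, had signals of 2930, 1755 and 242 (-2.86). All 3 rested on 1 probe set.

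Nup62, a protein of the central channel of the nuclear pore, had 9196, 3892 and 554 (log2 ratio -2.81 ± 0.66, SD, 4 probe sets). It was -1.65 when suffixed probe sets, whose names end in _s_at, _x_at or _a_at, were left out and -1.87 as the mean over probe sets. Rhob, a small GTPase with a short-lived mRNA, had 11973, 2260 and 426, a log2 ratio of -2.41 in each interval. Id2, which binds basic helix-loop-helix proteins and keeps them off DNA, had 5358, 1090 and 212 (-2.36 ± 0.07, SD, 2 probe sets). These 3 genes were lower in both intervals. Cdt1, which loads the replicative helicase onto origins, had 8820, 5037 and 1045, so that most of its difference lay in the second interval (-2.27 ± 0.04, SD, 2 probe sets, after -0.81).

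The other 5 of the lowest 12 genes each rested on 1 probe set, and 4 of them ended under 200. Med22, another head subunit of Mediator, stood at 775, 623 and 122 (-2.35). Cebpd, a C/EBP family transcription factor, stood at 927, 449 and 106 (-2.08), and Lsm8, part of the ring that binds U6 small nuclear RNA, at 5248, 3312 and 790 (-2.07). Casc3, a core protein of the exon junction complex, had 1083, 520 and 129 (-2.01). Mcat, a mitochondrial enzyme of fatty acid synthesis, had 699, 656 and 165 (-1.99). With a floor of 200 in place of 100, the ratios of Med22, Cebpd and Casc3 were -1.64, -1.17 and -1.38. The floor entered directly for genes under 100 at 4 h, which give a bound. The tyrosine kinase Abl1 went from 774 to 73.6, at least 7.74-fold lower. Cdca7, a Myc-responsive gene, went from 687 to 80.5 (at least 6.87-fold). The chaperone cofactor Bag5 went from 635 to 94.0 (at least 6.35-fold), and Itpkb, a kinase of inositol trisphosphate, from 612 to 80.0 (at least 6.12-fold). Of the 526 lower genes, 98 were at the floor at 4 h. Among 160 lower genes with several probe sets, 131 had them all below 0 and 39 had them all lower by 2-fold or more.

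A class was set apart of genes that were within 1.5-fold of 0 h at 2 h and then lower by 2-fold or more at 4 h. It held 274 genes (2.82% of all), which is 52.1% of the 526 lower genes, whereas 78.4% of all 9723 genes were within 1.5-fold of 0 h at 2 h. Another 112 of the 526 were already at least 2-fold lower at 2 h than at 0 h, and the remaining genes were lower by between 1.5-fold and 2-fold at 2 h or were higher. For scale, 553 genes (5.69%) were at least 2-fold lower and 137 (1.41%) higher at 2 h against 0 h. The median signals of the class were 526, 459 and 194, with a median log2 ratio of -1.26. As the 4 h median is under the filter of 200, many members passed only through the earlier arrays. Their lower ratios are partly built in. Of its members, 55 reached a 2 h signal of 1000 and 37 were at the floor at 4 h. Of 75 members with several probe sets, 67 had them all below 0 and 17 had them all lower by 2-fold or more. The class depends on how arrays are scaled, with 199 genes under equal medians, of which 166 are shared, 202 under quantile normalization, of which 175 are shared, and 320 under spike-in scaling, of which 201 are shared.

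Its members Stk10, Med22 and Mcat are described above, as is Itpkb, which ended under the floor. Sqle, squalene epoxidase, an enzyme that controls the rate of cholesterol synthesis, had 4687, 3344 and 873 (log2 ratio -1.94, 1 probe set). Polr1c, a subunit shared by RNA polymerases I and III, had 2679, 1891 and 506 (-1.90 ± 0.57, SD, 2 probe sets, and -1.10 for the probe set without such a suffix). Stard8, a GTPase-activating protein of focal adhesions, had 1662, 1175 and 331 (-1.83). In all of them the 4 h signal stood clearly below both earlier arrays. Dmrta2, a DM domain transcription factor, had 1061, 804 and 215 (-1.91). Efcab7, a ciliary protein, was at -1.94, Mtfmt, which formylates the mitochondrial initiator tRNA, at -1.91, and Rspo2, a secreted amplifier of Wnt signalling, at -1.89. These last 3 ended between 101 and 110, next to the floor, and with a floor of 200 Mtfmt and Rspo2 were under 2-fold.

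Bright members with several probe sets that were all at least 2-fold lower were chosen after their values were seen. Cks2, a small subunit of cyclin-dependent kinases, had signals of 5456, 4288 and 1713 (-1.32 ± 0.19, SD, 2 probe sets). Rrs1, a ribosome assembly factor, had 4200, 3265 and 1323 (-1.30 ± 0.20, SD, 2 probe sets). Zdhhc5, a palmitoyl transferase, had 1258, 1323 and 511 (-1.37 ± 0.06, SD, 2 probe sets). For each of them the 2 h signal lay within 1.5-fold of 0 h and the 4 h signal well below both. Brd2, a bromodomain protein that binds acetylated histones, stood at 3979, 2745 and 1282 (-1.10 ± 0.03, SD, 2 probe sets), and the pore membrane protein Pom121 at 2119, 1687 and 761 (-1.15 ± 0.21, SD, 2 probe sets).

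**Figure D2:**
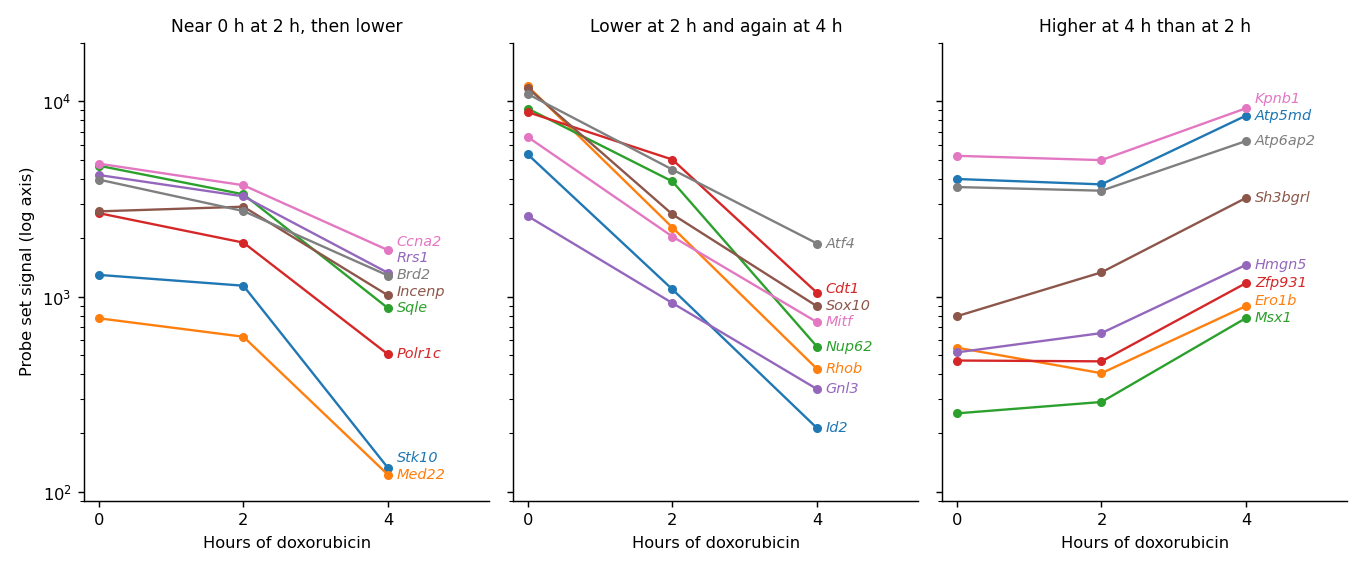
Signal of single genes at 0, 2 and 4 h (log axis), 1 array a time point and 1 probe set a gene, in panels for genes near 0 h at 2 h and then lower, genes lower in both intervals, and genes higher at 4 h than at 2 h. The lines of the left panel stay within 1.5-fold of 0 h at 2 h, some close to it, as for Stk10 (1293 to 1138), and others already lower, as for Brd2 (3979 to 2745). They then drop by 2-fold or more. Those of the middle panel are lower by more than 1.5-fold at 2 h. Genes were partly chosen after their values were seen.

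The stretch just before the transcription start is shown for 4 members of the class, as examples of the promoters behind the motif shares that follow. They were taken from the members with a 2 h signal of 1000 or more, several probe sets that were all 2-fold lower or more, and 1 listed start. Genes on 1 chromosome were left out, so they need not be all members that meet these limits. Each run holds the 150 bases before the start (RefSeq, GRCm38.p6), 5′ to 3′ on the gene's strand. Capitals mark GGGCGG, the core of the GC box, and CCAAT, the CCAAT box, on either strand. They lie at chr17:46248046-46248195 (minus strand) for Polr1c, chr2:84715165-84715314 (minus) for Zdhhc5, chr13:51645082-51645231 (plus) for Cks2 and chr5:135394547-135394696 (minus) for Pom121.
Polr1c: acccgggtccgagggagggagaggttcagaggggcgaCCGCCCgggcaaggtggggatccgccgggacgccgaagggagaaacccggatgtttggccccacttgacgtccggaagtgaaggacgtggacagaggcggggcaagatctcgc
Zdhhc5: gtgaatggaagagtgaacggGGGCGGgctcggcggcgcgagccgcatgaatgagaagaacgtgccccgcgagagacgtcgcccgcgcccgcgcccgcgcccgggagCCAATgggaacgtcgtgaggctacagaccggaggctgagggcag
Cks2: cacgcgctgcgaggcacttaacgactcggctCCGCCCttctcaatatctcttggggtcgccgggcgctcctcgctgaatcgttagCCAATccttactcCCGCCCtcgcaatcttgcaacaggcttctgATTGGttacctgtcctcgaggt
Pom121: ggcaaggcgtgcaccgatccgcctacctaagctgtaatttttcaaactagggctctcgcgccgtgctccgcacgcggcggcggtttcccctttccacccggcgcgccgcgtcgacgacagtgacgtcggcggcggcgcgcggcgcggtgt

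Cks2 held 2 GC boxes and 2 CCAAT boxes in this window, Zdhhc5 held 1 of each, Polr1c 1 GC box, and Pom121 neither. Of 27025 RefSeq windows of the same length, which include genes not measured here, 29.0% held GGGCGG and 25.3% CCAAT. Over the whole 300 bases around the start (250 before, 50 after), promoters were matched for 215 of the 274 class members and 7921 of the 9723 genes. GGGCGG was found in 64.2% of the class against 65.7% of all genes, CCAAT in 34.9% against 38.4%, and TATAAA in 5.12% against 7.03%. In all 27025 promoters these shares were 35.9%, 37.9% and 14.2%, so measured genes held GGGCGG more often than promoters at large. CCGGAAG, the core of ETS factor motifs, was in 12.1% of the class, 19.7% of all genes measured and 9.12% of all 27025 promoters. Class promoters had a median of 20 CpG and 60.7% GC, against 21 and 61.3% over all genes. The genomic span of the genes had a median of 25582 bp in the class and 23270 bp over all genes. Across 5 equal groups of genes from the shortest span to the longest, 3.09%, 2.32%, 2.58%, 2.73% and 3.40% belonged to the class. Motif matches are descriptions of these letters only.

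Gene lists by function were read as counts of members past 2-fold, beside the 5.41% of all genes that were at least 2-fold lower and 0.843% higher, and as medians beside the -0.06 of all genes. List medians nearer to 0 than 0.15 can change sign with the scaling and are given no direction. Counts are of members that passed the signal filter. In the other 3 scalings the number of higher members in a list moved by at most 2.

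Among 66 RNA polymerase II and Mediator genes, 7 were at least 2-fold lower at 4 h than at 2 h and 0 were higher, while 0 were 2-fold different in the first interval. The list median was -0.09, close to that of all genes. Besides Med18 and Med22, the lower members were 4 Mediator subunits and the TATA-binding protein Tbp, all chosen after their values were seen. Med26 stood at 462, 297 and 104 (-1.52 ± 0.83, SD, 2 probe sets), and Med31 at 1094, 779 and 331 (-1.23). Med4 stood at 847, 683 and 300 (-1.19) and Tbp at 999, 577 and 279 (-1.05). Med23 went from 268 to 60.9, under the floor. The highest member was Taf13, a subunit of TFIID, at 700, 1139 and 2019 (0.83). In the 4 scalings 6 to 8 members were lower and 0 higher.

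Transcription elongation and termination genes had 5 lower members of 43, with Cdk12 among them, and 0 higher (2 with equal medians or quantile normalization). Their median was -0.02. Cstf1, a subunit of the cleavage stimulation factor that acts at the 3′ end of transcripts, had 1756, 769 and 241 (-1.68). Chosen after their values were seen, Cdk7, the kinase of TFIIH, had 620, 543 and 216 (-1.33 ± 0.53, SD, 3 probe sets), and Hexim1, an inhibitor of P-TEFb, had 1189, 2207 and 933 (-1.24). Hexim1 was above its 0 h signal at 2 h and below it at 4 h. Cdk12, a kinase of the polymerase tail, was at least 2-fold lower by its brightest probe set, but the 3 probe sets had an SD of 1.11 and the ratio was 0.78 with a floor of 50, so no direction is given. Ell, an elongation factor, had 673, 175 and 326 (0.90 ± 0.49, SD, 2 probe sets), higher than at 2 h and below 0 h, but it stood at 0.21 without suffixed probe sets. Splicing factor genes had 0 of 56 members past 2-fold in either direction, with a median of -0.08, and ranged from Srsf4 (-0.97) to Hnrnph1 (0.73 ± 0.25, SD, 2 probe sets).

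Nuclear pore and nuclear transport genes had 5 lower members of 48 and 0 higher, or 3 lower and 1 higher with equal medians. Beside Nup62, Nup153, a protein of the nuclear basket, had 1393, 896 and 299 (-1.58). Nup37 of the outer ring had 2978, 1864 and 756 (-1.30), and, with Pom121 and Nup50, was chosen after its values were seen. The list median was 0.05, and 28 of 48 members were above 0. Kpnb1, importin beta, was the highest at 5265, 5006 and 9234 (0.88 ± 0.41, SD, 4 probe sets), but 0.15 without suffixed probe sets and 0.28 as the mean over all 4.

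Ribosome biogenesis and RNA polymerase I genes included 3 of 43 that were lower and 0 higher, and their median was -0.21 after 0.00 in the first interval. Polr1c and Rrs1 belonged to the class lower in the second interval only. Gnl3, the GTPase nucleostemin, had 2587, 927 and 336 and was about equally lower in both intervals (-1.48, then -1.46). Abundant nucleolar proteins stood at the other end. Ncl, nucleolin, had signals of 16096, 16369 and 25137 (0.62 ± 0.31, SD, 5 probe sets), and Npm1 had 0.47 ± 0.03 (SD, 2 probe sets). The list median stayed below that of all genes by 0.15 to 0.24 in the 4 scalings.

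Mitosis and spindle genes had 6 lower members of 40 and 0 higher, against 2 lower in the first interval, with a median of -0.15. Plk1, the main polo-like kinase of mitosis, had signals of 3926, 2039 and 671 (-1.60). Ccnf, cyclin F, went from 1389 to 417 and then to 70.1, at least 4.17-fold lower in the second interval. Of the members chosen after their values were seen, Incenp, the scaffold of the chromosomal passenger complex, had 2734, 2890 and 1014 (-1.51 ± 0.54, SD, 3 probe sets), and Ccna2, cyclin A2, had 4801, 3722 and 1730 (-1.11 ± 0.21, SD, 2 probe sets). Both were near their 0 h signal at 2 h. The spindle checkpoint kinase Ttk ended next to the floor (375, 345 and 115, -1.58), as did the mitotic inhibitor kinase Wee1 (1353, 347 and 137, -1.34). The list was not uniform, since the checkpoint kinase Bub1 had 933, 739 and 1380 (0.90) and the spindle protein Nusap1 831, 922 and 1477 (0.68).

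DNA replication and licensing genes had 2 lower members of 44, below the 5.41% of all genes, and 0 higher. Beside Cdt1, the other was Cdc7, the kinase that fires origins, at 330, 350 and 156 (-1.17 ± 0.60, SD, 2 probe sets), which was under 2-fold with a floor of 200 and as the mean over its probe sets. Mcm4, a subunit of the replicative helicase, had 3402, 3877 and 5179 (0.42 ± 0.01, SD, 2 probe sets), and Rfc1, of the clamp loader, had 944, 706 and 1081 (0.62 ± 0.05, SD, 3 probe sets). The licensing factor and the helicase subunit therefore had opposite signs. Of 27 G1 cyclin, inhibitor and Rb genes, 2 were lower, the atypical E2F repressors E2f8 (968, 549 and 178, -1.63) and E2f7 (1293, 582 and 289, -1.01). The call of E2f7 was lost with equal medians and quantile normalization. Among 47 DNA repair and damage checkpoint genes 1 was lower, Xpc, the damage sensor of nucleotide excision repair (632, 478 and 217, -1.14, under 2-fold with equal medians). The damage kinases Atr (206, 207 and 384, 0.89) and Atm (355, 321 and 520, 0.69 ± 0.44, SD, 2 probe sets) were the 2 highest.

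Chromatin remodelling and acetylation genes had 4 lower members of 50, all of them in the class within 1.5-fold at 2 h, and 1 higher member. With equal medians, quantile normalization and spike-ins the class held 1, 1 and 2 of these genes. Crebbp, the acetyltransferase CBP, had 792, 608 and 227 (-1.42 ± 0.38, SD, 2 probe sets). Srcap, the ATPase that places histone H2A.Z, had 255, 345 and 153 (-1.18), under 2-fold with a floor of 200. The others, chosen after their values were seen, were Brd2 and Arid1a, a subunit of the BAF complex, at 1743, 1194 and 594 (-1.01 ± 0.20, SD, 2 probe sets). Atrx, a remodeller of heterochromatin, was the higher member, at 418, 403 and 848 (1.07 ± 0.53, SD, 4 probe sets, under 2-fold with spike-in scaling). Histone methyltransferase and demethylase genes had 4 lower members of 48, against 9 in the first interval, and 1 higher. The H3K4 methyltransferase Kmt2d had 964, 435 and 139 (-1.64) and its relative Setd1a had 861, 479 and 196 (-1.29), lower in both intervals. The demethylase Kdm7a, the higher member, was higher from a 2 h signal of 132 (1.43, and 0.83 with a floor of 200).

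Signalling lists held lower members in both intervals. Of 22 BMP and TGF-beta feedback genes 5 were lower at 4 h than at 2 h and 0 higher, with a median of -0.73. In the first interval 7 were lower, with a median of -0.72. The list also holds receptors and the Smads that carry the signal, so these values are not of feedback genes alone. Id3, a relative of Id2, had 6002, 588 and 170 (-1.79). Smad4, the common partner of the receptor-activated Smads, was near 0 h at 2 h and lower at 4 h (1772, 1620 and 719, -1.17 ± 0.27, SD, 3 probe sets), as was the ubiquitin ligase Smurf1 (1468, 1056 and 503, -1.07 ± 0.52, SD, 2 probe sets). These 2 genes were chosen after their values were seen. Smad7, an inhibitory Smad, was low at 2 h and 0.56 above that at 4 h (843, 348 and 514). With equal medians and with quantile normalization 3 members of this list were lower.

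ERK feedback and target genes had 5 lower members of 13 and 0 higher, with a median of -0.75 after -1.17. Dusp7, a phosphatase of ERK, went from 461 to 91.4, at least 4.61-fold lower, but by 3 probe sets with an SD of 0.94 and with a mean log2 ratio of -1.30. Spred1, an inhibitor of Ras signalling, had 1907, 981 and 335 (-1.55 ± 0.57, SD, 4 probe sets). Dusp2, another MAP kinase phosphatase, chosen after its values were seen, was near 0 h at 2 h and lower at 4 h (406, 430 and 155, -1.48). Spry2, a feedback inhibitor of receptor tyrosine kinases, went the other way after a large first step (907, 185 and 239, 0.37).

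MAP kinase cascade genes had 4 lower members of 31, 3 of them in the class within 1.5-fold at 2 h, and 0 higher. Map3k4, a stress-activated kinase, had 1610, 1371 and 510 (-1.43 ± 0.48, SD, 4 probe sets). Map2k6, which activates p38, went from 425 to 61.7, at least 4.25-fold lower. PI3K, Akt and mTOR genes had 4 lower of 28 and 0 higher. Phlpp1, a phosphatase of Akt, had 1058, 497 and 156 (-1.68) and Rps6kb2, an S6 kinase, had 418, 437 and 170 (-1.36). Deptor, an inhibitor of mTOR, was the highest member (1401, 791 and 1090, 0.46 ± 0.24, SD, 5 probe sets).

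Genes with a large first step differed in how they went on. Of 17 immediate early genes, which respond to growth factors within minutes, 10 were at least 2-fold lower in the first interval and 1 in the second. That gene was Ier3, at 3095, 388 and 138 (-1.49, under 2-fold with a floor of 200). The list median was -1.33 and then -0.22, and its median signal of 227 at 2 h left little room above the floor. Maff, a small Maf factor, was higher in both steps (918, 1357 and 1798, 0.56 and 0.41). Melanocyte transcription factors had 6 of 8 lower in the first interval and 3 in the second, with medians of -1.24 and -0.85. Sox10 had 11710, 2640 and 892 (-1.57 ± 0.68, SD, 3 probe sets) and Mitf, the master regulator of pigment cells, had 6576, 2031 and 739 (-1.46 ± 0.45, SD, 2 probe sets). Sox4, chosen after its values were seen, had 6222, 2800 and 1254 (-1.16 ± 0.35, SD, 6 probe sets). Of 23 melanin synthesis and melanosome genes, 1 was at least 2-fold lower in the second interval, Lyst, a regulator of lysosome-related organelles that ended under the floor and was at -0.32 with a floor of 200. Mc1r, the melanocortin receptor, had 3976, 2200 and 1196 (-0.88 ± 0.21, SD, 2 probe sets).

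Stress response regulators also had lower members in both steps. Of 22 unfolded protein and integrated stress response regulators, 10 were lower in the first interval and 5 in the second, with medians of -0.93 and -0.39. Atf4, the transcription factor of the integrated stress response, had signals of 10918, 4477 and 1871 (-1.26 ± 0.24, SD, 2 probe sets). Cebpb had 2395, 579 and 122 (-2.24 ± 1.63, SD, 2 probe sets, with a mean of -1.09). Eif2ak3, the kinase PERK, was low at 2 h and 0.54 higher at 4 h (1499, 601 and 873). The endoplasmic reticulum chaperones that this response controls had 1 lower and 1 higher of 23, with a median of 0.19. Pdia4, a disulphide isomerase, had 3785, 5279 and 8118 (0.62), and Ero1b, an oxidase that drives disulphide formation, had 548, 405 and 896 (1.14 ± 0.05, SD, 2 probe sets).

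Of 21 p53 target genes 2 were lower (1 with equal medians, 3 with spike-ins) and 0 higher, with a median of -0.32. Ppm1d, a phosphatase that restrains p53, went from 207 to 47.9, a bound of -1.05 set by the floor that was under 2-fold with a floor of 200 and as the mean over its 2 probe sets. The other, Xpc, is given above. Cyclin G1, Ccng1, had 3728, 4953 and 6670 (0.43 ± 0.16, SD, 3 probe sets). Of 13 BCL2 family genes 2 were lower and 0 higher. Bid, a pro-apoptotic member, had 1374, 780 and 297 (-1.39 ± 0.15, SD, 2 probe sets), and Mcl1, a short-lived pro-survival member, had 2331, 676 and 277 (-1.29 ± 0.38, SD, 6 probe sets, under 2-fold as their mean). Caspase and caspase inhibitor genes had 0 of 15 past 2-fold in either direction.

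Large families of regulators had medians below that of all genes. The share at least 2-fold lower was 8.53% of Zfp genes, 9.09% of F-box, Klhl and Trim genes, 10.8% of ubiquitin-specific proteases and 8.57% of mRNA decay genes, beside 5.41% of all genes. The median 2 h signals of these lists were 364, 504, 646 and 687. Of all genes with a 2 h signal from 200 to 500, 8.99% were lower, and from 500 to 1000, 6.83%. The Zfp share was thus no higher than that of all genes from 200 to 500. The part of signal in the other shares was not tested. Zinc finger Zfp genes had 11 lower of 129, 8 of them in the class within 1.5-fold at 2 h, and 1 higher, with a median of -0.25. The highest, Zfp931, had 471, 466 and 1175 (1.33), and the lowest, Zfp595, went from 328 to 61.8, at least 3.28-fold lower. F-box, Klhl and Trim ubiquitin ligase genes had 8 lower of 88 and 1 higher, with a median of -0.33. Fbxl14 went from 385 to 25.1, at least 3.85-fold lower. Ubiquitin-specific proteases had 4 lower of 37 and 0 higher, led by Usp2, at least 4.05-fold lower (405 to 66.5). In mRNA decay 3 of 35 were lower and 0 higher, led by the deadenylation adaptors Tob1 (443 to 92.8, at least 4.43-fold) and Btg1 (1476, 369 and 104, -1.82 ± 0.29, SD, 2 probe sets). With a floor of 200 the Fbxl14, Btg1 and Zfp595 values were under 2-fold. Scaling to equal medians left 4 lower members in the F-box, Klhl and Trim list, 3 in the stress response list, and 2 in each of the chromatin remodelling, histone methyltransferase and PI3K lists.

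Cholesterol synthesis genes as a list did not follow Sqle. It was the 1 lower member of 21, the list median was 0.00, and 9 members were below 0. Msmo1, a later enzyme of the pathway, had 2010, 1737 and 932 (-0.90). Hmgcs1, chosen after its values were seen, had 1731, 1224 and 852 (-0.52 ± 0.37, SD, 4 probe sets). Lss, which closes the sterol rings directly after Sqle, had 652, 510 and 858 (0.75, 1 suffixed probe set). Idi1, an early enzyme, had 789, 1002 and 1626 (0.70 ± 0.17, SD, 2 probe sets). Neighbouring steps of the pathway thus had opposite signs.

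Lists of abundant housekeeping genes had no or 1 member past 2-fold. None of 44 cytosolic ribosomal protein, 35 proteasome, 57 translation factor, 33 tRNA synthetase, 18 glycolysis, 20 cytosolic heat shock chaperone and 46 lysosome and autophagy genes was at least 2-fold lower or higher, and in the other scalings 1 translation factor gene was, with spike-ins. Ribosomal protein genes had a median of -0.01, with a range from -0.32 to 0.51, and median signals of 38336, 45367 and 45198. Respiratory chain genes had 0 lower and 1 higher of 76, with a median of 0.16 (0.04 to 0.31 in the 4 scalings). That gene was Atp5md, a small subunit of the ATP synthase, at 4007, 3760 and 8468 (1.17, 1 probe set). Lysosome proton pump and autophagy genes had a median of 0.21 (0.10 to 0.36 in the 4 scalings), and 7 of 46 were below 0. Atp6ap2, an accessory protein of the proton pump, had 3644, 3489 and 6271 (0.85 ± 0.10, SD, 3 probe sets). The median 2 h signals of these lists lay between 1833 (glycolysis) and 45367 (ribosomal proteins), with 3180 for the lysosome and autophagy list. Over all genes the median log2 ratio was -0.15 at a 2 h signal from 200 to 500 and -0.08 from 1000 to 2000. It was 0.02 from 2000 to 5000 and 0.08 from 5000. The part of signal in the list medians was not tested.

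**Figure D3:**
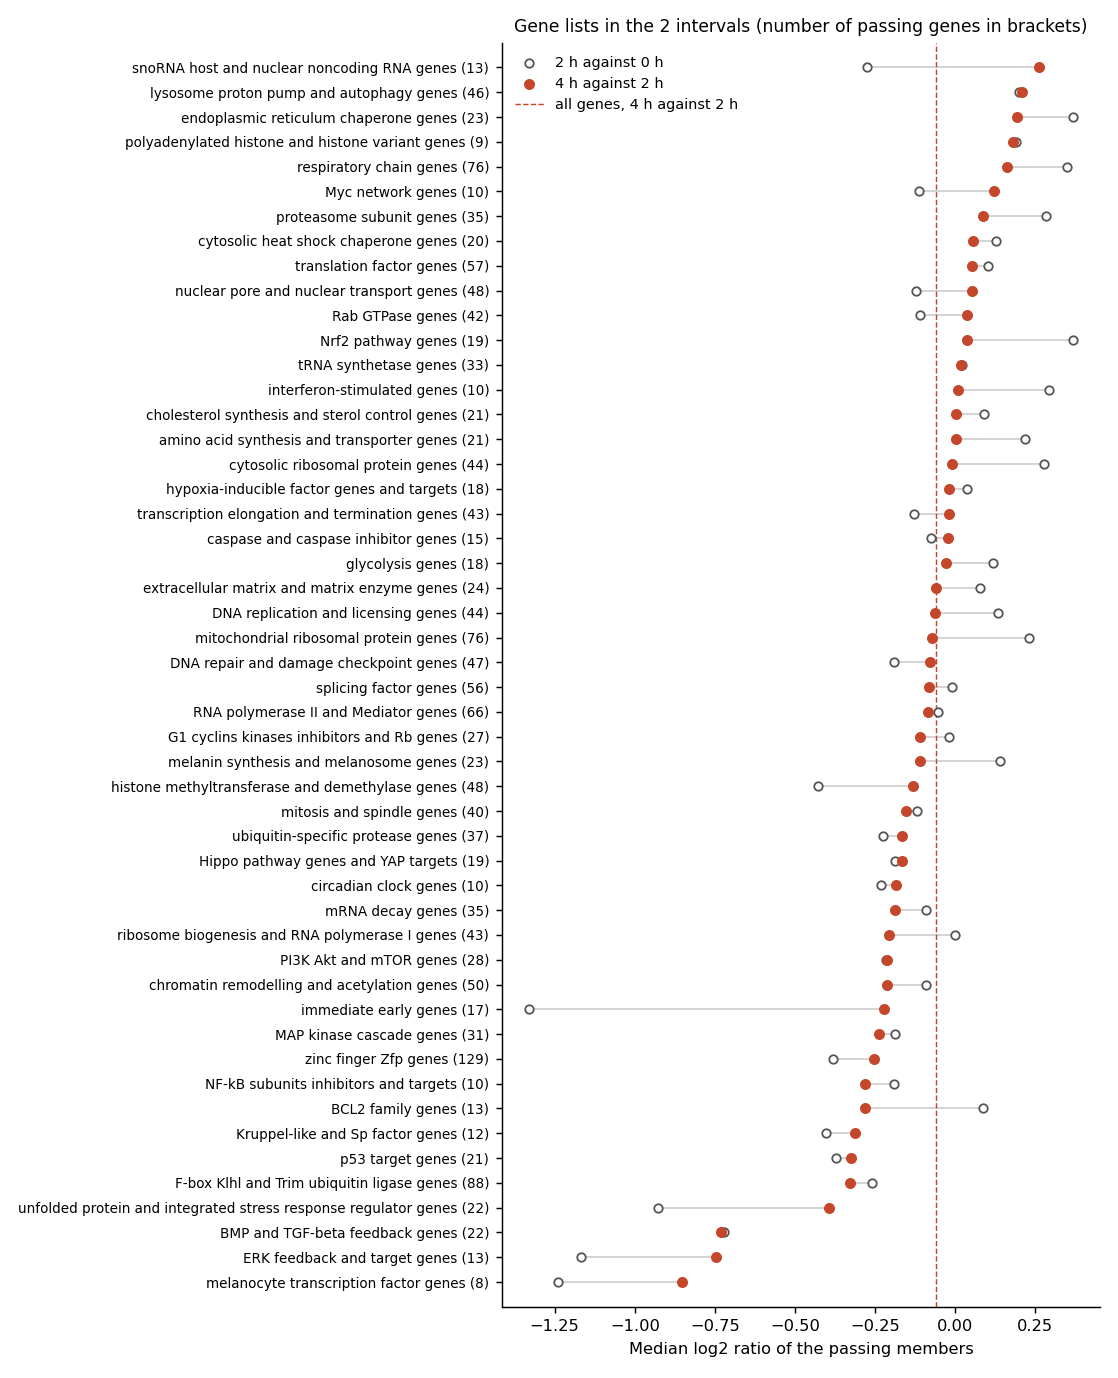
Median log2 ratio of the passing members of 50 gene lists (number in brackets), for 2 h against 0 h (open circles) and 4 h against 2 h (filled circles), which share the 2 h array; the dashed line is the median of all genes at 4 h against 2 h, -0.06. Immediate early genes lie at -1.33 and then -0.22, whereas the BMP and TGF-beta feedback list, which includes receptors and Smads, lies at -0.72 and -0.73. No error bars are drawn because there is 1 array a time point.

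Higher genes were fewer than lower genes. Of the 82 genes at least 2-fold higher at 4 h than at 2 h, 37 were at least 2-fold lower at 2 h than at 0 h, and the median signals of the 82 were 336, 170 and 424. A low 2 h signal enters both ratios, so neither value is independent of the choice of these genes. Sox21, a SOX family transcription factor, showed this most, with signals of 1418, 89.9 and 1611, at least 16.1-fold higher at 4 h than at 2 h. Its 0 h and 4 h signals were alike, and the 2 h array alone was low, by 1 probe set. Malat1, a nuclear noncoding RNA, had 438, 79.7 and 326 (at least 3.26-fold higher). Tnfrsf9, Aqp12 and Plxdc1 had the same course, at 492, 81.5 and 398 for Tnfrsf9, 274, 97.6 and 348 for Aqp12, and 256, 50.5 and 344 for Plxdc1. With a floor of 200 these 3 and Malat1 were under 2-fold.

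The 12 highest genes above the floor each rested on 1 probe set. Fsd1, a centrosomal protein, had 562, 115 and 485 (log2 ratio 2.07). Tnfrsf11a, the receptor RANK, had 207, 106 and 414 (1.96), and Marchf10, a RING ubiquitin ligase, had 469, 114 and 401 (1.82). All 12 had a signal between 106 and 151 at 2 h. That is under the filter of 200, so they passed only through a higher signal at 0 h or 4 h. Their ratios are thus partly built in and support nothing. The rest were Kiz (1.74), Il1f10 (1.74), Ddn (1.69), Pla2g10 (1.58), Fam78b (1.52), B3gnt7 (1.51), Pgap3 (1.47), Srcin1 (1.45) and Jph1 (1.44). With a floor of 200, 7 of the 12 were under 2-fold. Of 20 higher genes with several probe sets, 13 had the same sign in all and 1 was at least 2-fold higher in all.

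A class of 28 genes (0.288% of all) was within 1.5-fold of 0 h at 2 h and then higher by 2-fold or more at 4 h. Its median signals were 334, 319 and 672, and 1 member, Atp5md, had a 2 h signal of at least 1000. Of the 28, 6 had a 2 h signal under 200 and passed the filter only through a higher signal at 0 h or 4 h. Their higher ratios are partly built in and support nothing. Msx1, a homeobox transcription factor, had 252, 289 and 778 (1.43). Hmgn5, a nucleosome-binding protein, had 518, 651 and 1456 (1.16). Chm, the Rab escort protein, had 450, 326 and 750 (1.20 ± 0.42, SD, 2 probe sets, under 2-fold as their mean). Each of these stood above both earlier arrays at 4 h. Pgap3, of GPI anchor remodelling, Slco2b1, an organic anion transporter, Abca5, a lysosomal transporter, and Dnase2a, the lysosomal DNase, were at 1.47, 1.26, 1.22 and 1.19, from 2 h signals of 151 to 204. Ero1b was the 1 member whose probe sets were all at least 2-fold higher. Sh3bgrl, chosen after its values were seen, was higher in both steps and so outside the class (793, 1332 and 3207, 1.27 ± 0.31, SD, 3 probe sets). The class held 100 genes with equal medians, 64 with quantile normalization and 10 with spike-in scaling, of which 26, 26 and 8 are shared with the 28.

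**Figure D4:**
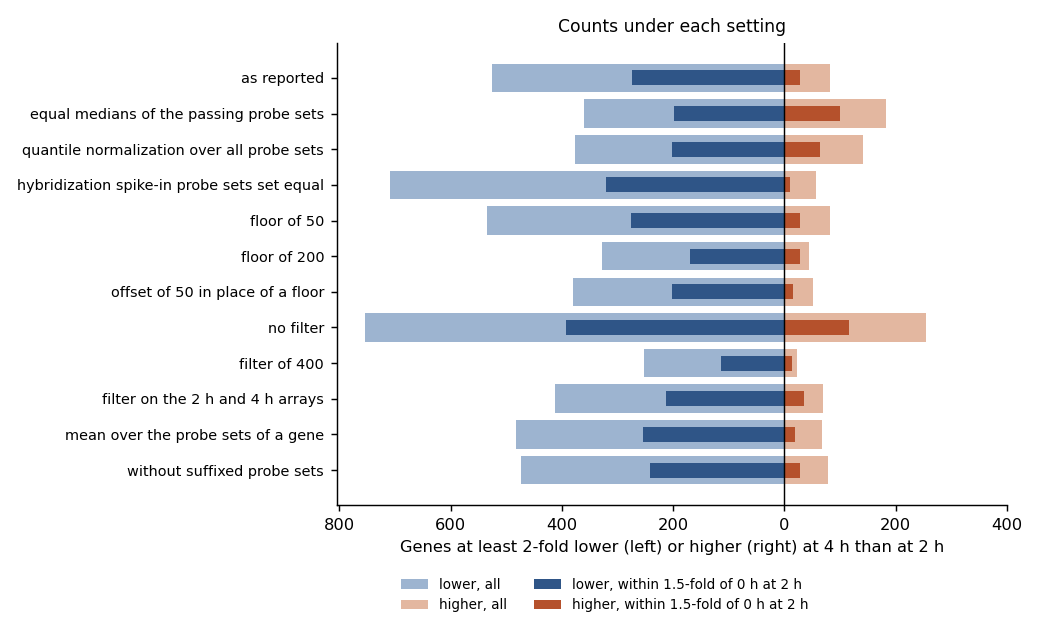
Number of genes at least 2-fold lower (bars to the left) or higher (bars to the right) at 4 h than at 2 h under each way of processing, with the narrow dark bars for genes also within 1.5-fold of 0 h at 2 h. Lower genes outnumber higher genes in every setting drawn, from 360 against 183 with equal medians to 708 against 57 with spike-ins among the scalings.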

How the data were processed

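Mouse430_2 arrays of B16 cells at 0, 2 and 4 h of doxorubicin were used, 1 each, grouped by title. One label field also names bone marrow-derived macrophages and "ET", which is not expanded, and no array was regrouped. The authors deposited linear probe set intensities with a 2% trimmed mean of 150.0 on each array. The submitters' processing notes name GCOS 1.4, and how signals were computed was not given in the sources used here. Hybridize times and fluidics modules came from headers of the deposited experiment files.

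Intensities were rescaled to a trimmed mean of 500, set to at least 100 and taken to log2. Probe sets whose mean log2 signal over 3 arrays reached log2 of 200 passed (15785). Of 45101 probe sets, 64 are controls, 34958 carry 1 symbol in the platform annotation, 932 carry several and 9211 are not listed there, and none was named from these last groups. Symbols of 34754 were updated by Entrez ID to RefSeq GRCm38.p6. A gene took its brightest passing probe set, and 3905 of 9723 genes had several. Genes were counted at 2-fold (log2 of 1), and within 1.5-fold counted as near 0 h. Signals of different genes depend on the probes and are not compared.

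By rule, 12 genes per direction above the floor were named whose probe sets share a sign and a size of at least 0.58, 4 per direction with 1 array at the floor, 10 per second-interval class, 2 per direction and list, and 3 markers per cell type. Clone names were left out. The classes and the 50 lists were chosen with earlier results of these data known. Scaling, floor, filter and probe set alternatives were tried. Counting was tested on simulated data, with log2 ratios of -2 or 2 planted in genes with a 0 h signal over 1000. Of 50 genes planted lower in the second interval only, 92% were placed in that class, and of 50 unchanged genes 2%. Dim genes and differences near 2-fold were not covered. Software was Python 3.11.15 with numpy 2.4.6, pandas 2.3.3 and scipy 1.17.1, and figures were drawn in matplotlib 3.10.9.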

Additional observations from a re-analysis of the deposited data

How the results depend on the processing

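More genes were lower than higher at 4 h under every alternative tried. Against 82 genes at least 2-fold higher and 28 of them within 1.5-fold of 0 h at 2 h, equal medians gave 183 and 100, quantile normalization 141 and 64, and spike-in scaling left 10 in the second group. A floor of 200 gave 327 lower genes (against 526), 45 higher and 170 lower in the second interval only (against 274), and adding 50 to each signal instead gave 52 and 15 higher. Without a filter 18193 genes were tested, with 754 lower and 254 higher (74.8% lower) and 116 higher in the second interval only. With a filter of 400 fewer genes, 6883, were tested, with 253 lower, 23 higher, 113 lower and 14 higher in the second interval only. When a stricter limit set what was near 0 h at 2 h, the second-interval classes held 164 lower and 16 higher genes, and a looser one of 2-fold gave 45 higher. For the scalings, the floor and the offset the cause was not tested. Of 48 recomputed counts, 29 stayed within 1.5 times the value reported. Among 2498 values of named genes, 2 changed sign where the value reported was 2-fold or more. Both were of Cdk12, at -1.42 as reported, 0.78 with a floor of 50 and 0.61 with 50 added. There another of its probe sets stands for the gene. Sign changes of smaller values are not in that count. They occurred without suffixed probe sets for Tfap2a (0.06 as reported, then -0.69) and Mycbp (0.72, then -0.38), among others. No paired analysis was possible because each time point has 1 array. That single array limits every value above, and the 526 lower genes have a median signal of 185 at 4 h against a floor of 100. Genes that end near 100 at 4 h could have lower true signals than shown, and the spread between cultures is not known.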
